A study of Mus musculus with 13 samples.

Results

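Expression of 22180 genes was compared between subcutaneous Panc02 tumors of DIO + HMB mice (n = 4) and of control mice (n = 3), which are 7 of the 13 tumors in the series. Panc02 is a mouse pancreatic ductal adenocarcinoma cell line, and all host mice were male C57BL/6 mice injected with it in the flank. The DIO + HMB mice carried diet-induced obesity (DIO) from feeding on high-fat chow, and ate a diet with added HMB (β-hydroxy-β-methylbutyrate), while the control mice were non-obese, ate the control diet and received no HMB. The groups thus differed in body weight, dietary fat and HMB at once, and which of these a difference follows cannot be told apart within this comparison. The other 6 tumors came from DIO mice without HMB (n = 3) and from control + HMB mice (n = 3), and their values are given beside the main ones where they help to place them. Mice of the study received gemcitabine or vehicle and were fasted before euthanasia, and the labels do not say which injection the mice of these tumors had. Members of the comparison were found by the sample titles alone, and each gene was represented by the probe set with a single gene symbol and the highest mean over all 13 arrays. Each array held the whole tumor of a different mouse, so more cells of a type and more RNA per cell cannot be told apart.

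HMB is made in the body from the branched-chain amino acid leucine and is taken as a supplement for muscle, where it is known to stimulate protein synthesis through mTOR and to restrain protein breakdown. Obesity enlarges fat depots and alters circulating insulin, fatty acids, leptin and glucocorticoids, all of which reach a tumor growing under the skin. Fatty acids act on genes of fat handling through the peroxisome proliferator-activated receptors, and glucocorticoids act through the glucocorticoid receptor, which binds DNA at target genes and turns many of them on within hours. A Panc02 tumor also holds macrophages, T cells, fibroblasts and vessels of the host, and these contribute to its RNA.

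No gene passed the adjusted threshold: 0 of 22180 genes (0%) had a Benjamini-Hochberg adjusted p under 0.05 in limma, and the lowest adjusted p was 0.123. With a single array left out, Kctd21 passed without DIO + HMB replicate 1 (adjusted p = 0.0479) and without control + HMB replicate 2 (adjusted p = 0.0375), and 3 lower genes, Ccdc190 and the clone-named 1700001J11Rik and 4930524O05Rik, passed without control replicate 3. Before adjustment, 1774 genes (8.0%) were higher and 1499 genes (6.76%) were lower in DIO + HMB than in control at p under 0.05. In 1851 genes (8.35%) every DIO + HMB tumor lay above every control tumor, and in 1462 genes (6.59%) every DIO + HMB tumor lay below. These shares are the background against which the members of a list are read below, and a gene called higher or lower without an adjusted p under 0.05 is described by its values only. A difference of more than 1 on the log2 scale was found in 219 genes in the higher direction, and a difference under -1 in 43 genes. At the median standard error of 0.177, a gene needed a difference of 1.45 to pass on its own.

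The direction of a difference followed the level of the gene. The SD of all gene values within an array, its width, was 2.60 ± 0.019 (SD, n = 4) in DIO + HMB and 2.52 ± 0.019 (SD, n = 3) in control. The 4 DIO + HMB arrays spanned 2.576 to 2.62 and the 3 control arrays 2.511 to 2.544, so the groups did not overlap in this measure. Genes were divided into 5 equal classes by mean signal. In class 1, the lowest, the median difference was -0.113, and all DIO + HMB tumors lay above control in 1.15% of genes and below in 9.54%. In class 4 the median difference was 0.118, with 14.4% above and 3.79% below, and in class 5, the highest, it was 0.072, with 15.7% above and 7.17% below. The mean was higher in DIO + HMB in 51.2% of all genes, in 28.4% of class 1, 67.2% of class 4 and 62.4% of class 5. A list of well-expressed genes is therefore read against about 14.4% to 15.7% of genes above, rather than against 8.35%, and a count of members with a higher mean against 62.4% to 67.2%. When the gene table was quantile normalized once more, 41.2% of the genes at p under 0.05 were higher in DIO + HMB, against 54.2% without this step. List medians moved with such choices and with single tumors. Under 16 alternatives, the medians of all but 2 of the 67 lists changed sign or moved by more than 1.5 times at least once, the exceptions being glucocorticoid targets and smooth muscle and pericyte genes. The medians of 14 lists took both signs as single tumors were left out, and 19 took the other sign with array width in the model.

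**Figure D1:**
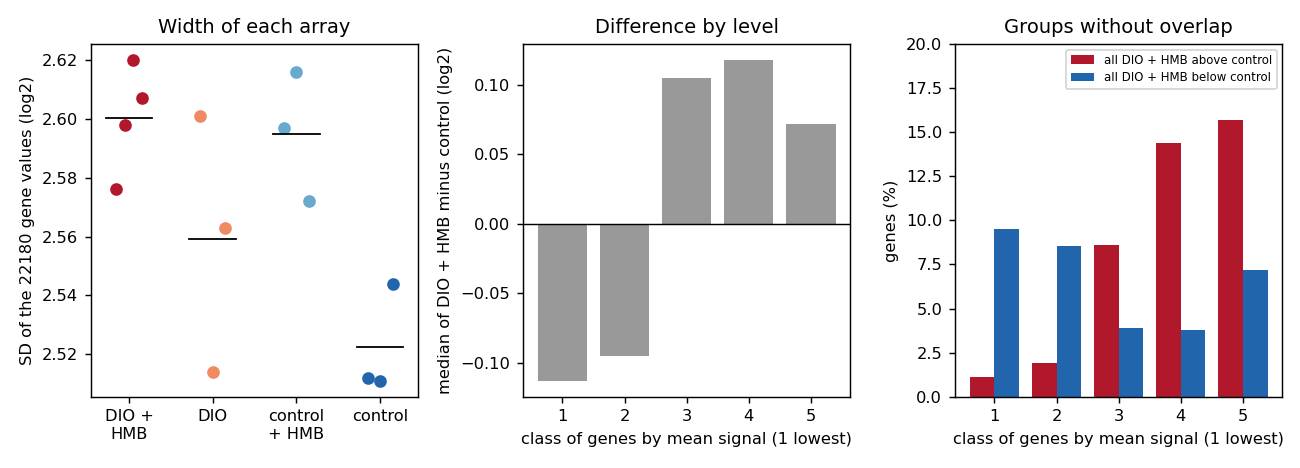
The left panel plots the width of each array (SD of 22180 gene values, log2) as points with group means as lines, the middle panel the median of DIO + HMB minus control (log2) in each of 5 classes of genes by mean signal (1 lowest), and the right panel the percentage of genes in each class whose groups do not overlap. The 4 DIO + HMB arrays are wider than the 3 control arrays, and genes with all DIO + HMB tumors above control make up 15.7% of signal class 5 and 1.15% of class 1.

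Several tumors stood apart in markers of other tissues. DIO + HMB replicate 1 was rich in B cell and lymph node genes, replicate 2 in fat genes and replicate 3 in skeletal muscle genes. For each list a score per array was taken as the mean over members of the log2 level minus its mean over all 13 arrays. The B cell and plasma cell score was 3.34 in DIO + HMB replicate 1, against -0.43 to -0.02 in replicates 2 to 4 and -0.41 to -0.26 in control. Cd79a, a chain of the B cell receptor, had log2 signals of 8.67, 4.08, 2.45 and 3.54 in DIO + HMB tumors, against 3.48, 2.94 and 3.39 in control tumors. Adiponectin (Adipoq), a hormone of fat cells, had 5.96, 8.09, 4.95 and 5.99 in DIO + HMB tumors, against 3.84, 6.77 and 4.81 in control tumors. The fat signal was highest in DIO + HMB replicate 2 and in control replicate 2, so both groups held a fat-rich tumor. The skeletal muscle score was 3.14 in DIO + HMB replicate 3 and 1.42 in control replicate 3, against -0.96 to -0.38 in the other tumors of both groups. Macrophage markers, in contrast, were high everywhere, with Csf1r, the receptor of a macrophage growth factor, at 9.73 to 10.27 in DIO + HMB, against 9.89 to 10.03 in control. The tumor epithelial keratin Krt18 was also present in every tumor, at 8.99 to 9.68 in DIO + HMB, against 9.31 to 9.74 in control. Of the other duct markers, Krt8, Cdh1 and Sox9 were at 7.04 or above in every tumor of both groups. Epcam and Krt19 were weaker, and highest in DIO + HMB replicate 1. Epcam had 6.47, 4.32, 4.16 and 4.03 in DIO + HMB, against 4.45, 4.24 and 4.22 in control. Krt19 had 6.56, 3.43, 4.22 and 3.78 in DIO + HMB, against 4.22, 3.30 and 4.39 in control. Results that rest on replicates 1 and 2 of DIO + HMB are given below with both tumors left out.

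**Figure D2:**
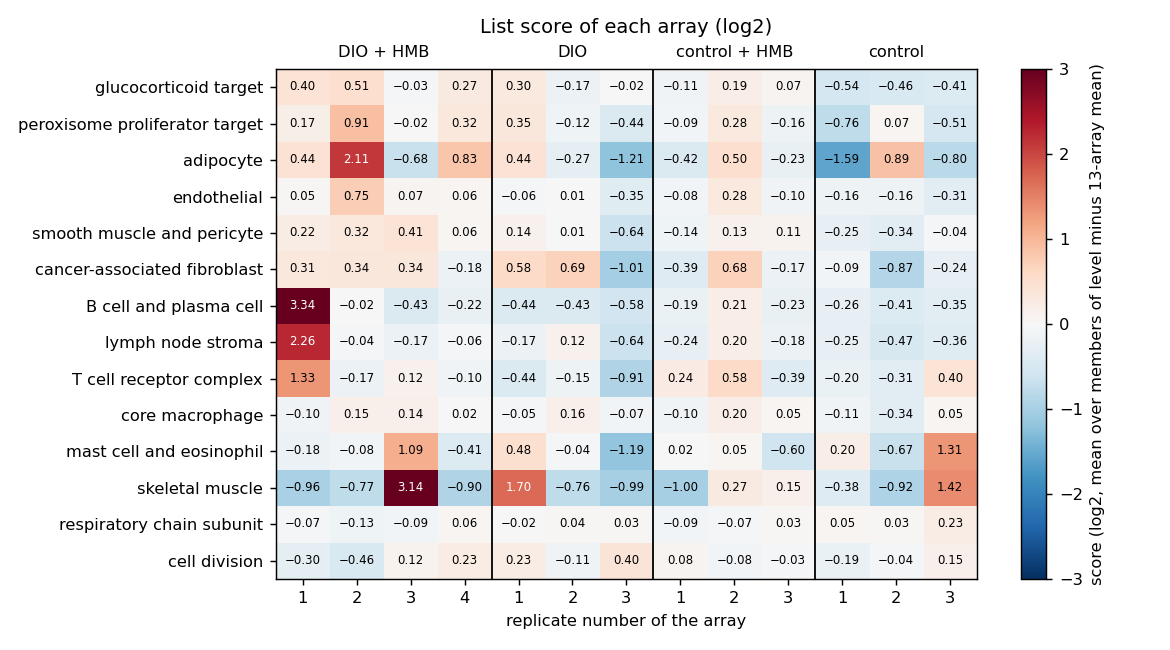
Each cell gives the score of a gene list (rows) in an array (columns, with its replicate number), averaged over the members as the log2 level minus the mean of the gene over all 13 arrays. The B cell and plasma cell score of 3.34 in DIO + HMB replicate 1, the adipocyte score of 2.11 in DIO + HMB replicate 2 and the skeletal muscle score of 3.14 in DIO + HMB replicate 3 stand apart, and the glucocorticoid target score is lower in all 3 control arrays than in all 4 DIO + HMB arrays.

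The 12 genes with the lowest unadjusted p in the higher direction had varied known roles, and none passed (adjusted p = 0.123 to 0.137 in limma). All 12 had DIO + HMB and control tumors without overlap, which was the case for 8.35% of all genes in this direction, and the choice by p alone favours such genes. Kctd21, an adaptor of a ubiquitin ligase that acts on a histone deacetylase, had log2 signals of 5.02, 5.65, 5.58 and 5.52 in DIO + HMB tumors, against 3.81, 3.75 and 4.21 in control tumors. The lowest DIO + HMB tumor lay 0.81 above the highest control tumor, and the difference was 1.52 ± 0.20 (SE). Trim30a, an interferon-induced regulator of inflammatory signaling, had 5.05, 5.40, 5.07 and 5.15 in DIO + HMB tumors, against 3.43, 3.99 and 3.20 in control tumors. The DIO + HMB tumors spanned 0.35, and the lowest of them lay 1.06 above the highest control tumor. The difference was 1.63 ± 0.25. Trim30a has close relatives in the mouse genome, so part of its signal could come from them. Prr5, a subunit of the mTORC2 kinase complex, had 7.18, 6.98, 6.75 and 6.78 in DIO + HMB tumors, against 5.20, 6.19 and 5.61 in control tumors, a difference of 1.25 ± 0.22. Cxcr2, the receptor that draws neutrophils toward chemokines, had 5.97, 5.62, 5.59 and 5.51 in DIO + HMB tumors, against 4.26, 5.06 and 4.02 in control tumors, a difference of 1.23 ± 0.23. Control replicate 2 was the highest control tumor for Trim30a, Prr5 and Cxcr2 alike.

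Ggps1 makes geranylgeranyl diphosphate, the lipid that anchors small GTPases in membranes, and had 7.82, 8.09, 8.05 and 7.92 in DIO + HMB, against 7.05, 7.35 and 7.03 in control, a difference of 0.83 ± 0.13. Narf, a nuclear protein that binds prenylated prelamin A, had 7.89, 7.89, 8.07 and 7.76 in DIO + HMB, against 6.93, 6.89 and 7.15 in control, a difference of 0.91 ± 0.15. The lowest DIO + HMB tumor lay 0.47 above the highest control tumor for Ggps1 and 0.61 above it for Narf. Havcr2, which encodes the immune checkpoint receptor TIM-3, had 7.13, 7.49, 7.81 and 7.34 in DIO + HMB, against 6.61, 6.27 and 6.78 in control, a difference of 0.89 ± 0.17. Ccnd3 (cyclin D3, which drives entry into the cell cycle) differed by 0.61 ± 0.11, Kdm4b, a histone demethylase, by 0.64 ± 0.11, Zbtb24, a zinc finger protein of DNA methylation, by 0.98 ± 0.17, and Bbs4, a subunit of a ciliary transport complex, by 1.01 ± 0.18. Nlrp10, an innate immune sensor family member, had 3.30, 3.36, 3.37 and 2.92 in DIO + HMB, against 2.06, 2.40 and 2.32 in control, and its difference was 0.98 ± 0.18. Of the 12 genes, 1 lay in signal classes 1 and 2.

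**Figure D3:**
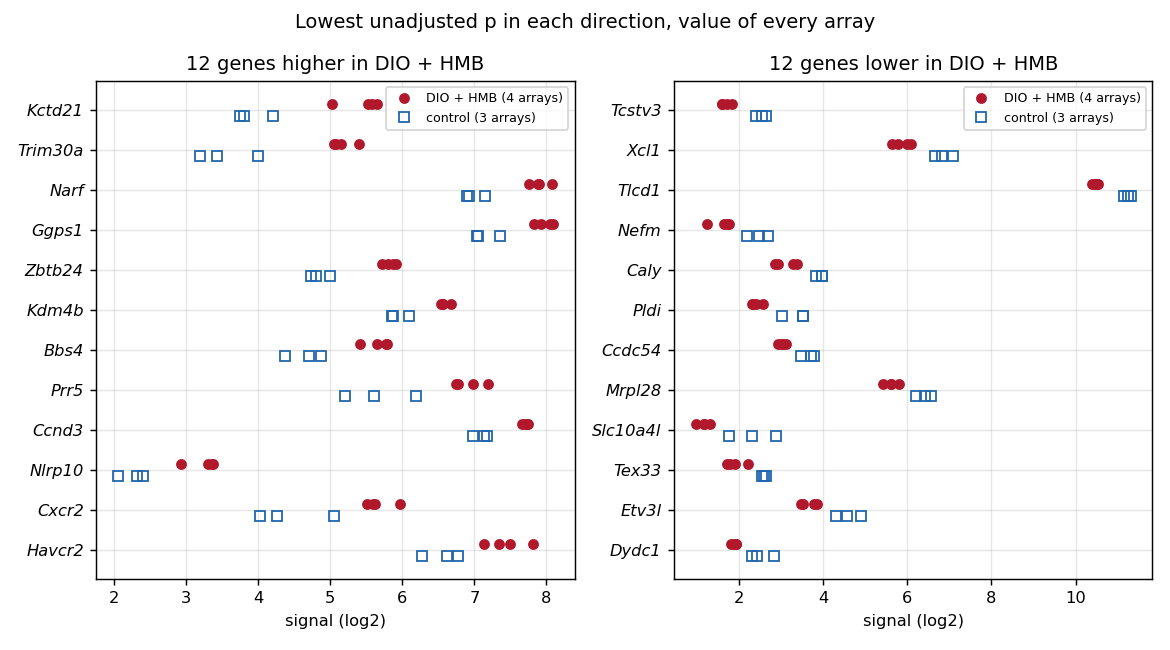
Each row is a gene and each symbol the log2 signal of an array, with filled circles for the 4 DIO + HMB tumors and open squares for the 3 control tumors, for the 12 genes with the lowest unadjusted p in each direction. The groups do not overlap in any row, and most of the lower genes sit at low signal.

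The 12 genes with the lowest p in the lower direction were mostly weakly expressed: 7 lay in classes 1 and 2 of signal, where all DIO + HMB tumors lay below control in 9.54% and 8.54% of genes. None passed (adjusted p = 0.137 in limma), and all 12 had groups without overlap, against 6.59% of all genes. Tlcd1, a membrane protein that affects membrane fluidity, was the most strongly expressed, with 10.54, 10.40, 10.45 and 10.51 in DIO + HMB tumors, against 11.15, 11.24 and 11.31 in control tumors, a difference of -0.76 ± 0.14. Its 4 DIO + HMB tumors spanned 0.14, and the lowest control tumor lay 0.61 above them. Xcl1, a chemokine of T and NK cells that attracts cross-presenting dendritic cells, had 5.65, 6.00, 6.09 and 5.78 in DIO + HMB tumors, against 6.67, 6.82 and 7.08 in control tumors, a difference of -0.97 ± 0.18. It was the only chemokine ligand of the 31 measured in which all DIO + HMB tumors lay below control. Mrpl28, a protein of the mitochondrial ribosome, had 5.60, 5.42, 5.60 and 5.80 in DIO + HMB, against 6.19, 6.41 and 6.57 in control, a difference of -0.78 ± 0.15. Tcstv3, known from early mouse embryos, had 1.58, 1.70, 1.58 and 1.84 in DIO + HMB, against 2.53, 2.63 and 2.41 in control, a difference of -0.85 ± 0.13. The neuronal genes Nefm, a neurofilament subunit, and Caly differed by -0.86 ± 0.16 and -0.81 ± 0.15. Pldi, a noncoding RNA known from testis, differed by -0.96 ± 0.18, Etv3l by -0.93 ± 0.19, and Slc10a4l, at 0.97 to 1.31 in DIO + HMB, against 1.76 to 2.87 in control, by -1.17 ± 0.23. The rule skipped 8 predicted, clone-named or small RNA symbols in this direction.

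The largest difference among the skipped symbols of this direction that the files name as a microRNA was that of Mir540, which was chosen after its values were seen. Its probe set had 2.89, 2.66, 3.21 and 3.32 in DIO + HMB, against 4.64, 4.94 and 4.09 in control, a difference of -1.54 ± 0.26 (adjusted p = 0.137), and the lowest control tumor was 0.76 above the highest DIO + HMB tumor. The array measures RNA from the locus, which may be the precursor rather than either mature arm. RefSeq places the arms on chromosome 12 (GRCm38.p6, plus strand), at chr12:109586085-109586107 and chr12:109586122-109586141. They are shown with bases 2 to 8, the seed that pairs with target RNAs, in capitals.
mmu-miR-540-5p: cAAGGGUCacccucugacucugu
mmu-miR-540-3p: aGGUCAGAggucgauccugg
The seeds of the arms differ, so the arms would pair with different targets.

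Genes known to respond to glucocorticoids had the largest share of members above control among the 67 lists. Of 18 measured members, 16 had a higher mean in DIO + HMB, 12 were higher at unadjusted p under 0.05 and none lower, and in 8 members (44.4%) all DIO + HMB tumors lay above all control tumors, against 8.35% of all genes and 14.4% to 15.7% in the upper 2 signal classes, where 13 of the 18 lie. None passed over all genes (lowest adjusted p = 0.168). The median difference was 0.67, against 0.008 over all genes, and it was 0.53 without DIO + HMB replicates 1 and 2, 0.59 with the adipocyte score in the model and 0.50 with array width in the model. List scores ran from -0.03 to 0.51 in DIO + HMB, against -0.54 to -0.41 in control, without overlap.

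Pdk4, the kinase that shuts off pyruvate dehydrogenase in fasting, had the largest difference of the list. Its log2 signals were 5.87, 8.40, 7.53 and 6.93 in DIO + HMB tumors, against 3.69, 5.01 and 4.96 in control tumors, and the difference was 2.63 ± 0.65 (adjusted p = 0.184). DIO + HMB replicate 2, the fat-rich tumor, was the highest. The difference of Pdk4 was 1.92 with the adipocyte score in the model and 0.73 with array width in the model. Zbtb16 (PLZF), a transcription factor that the glucocorticoid receptor induces directly, had 4.87, 5.71, 4.82 and 4.29 in DIO + HMB tumors, against 2.76, 3.62 and 3.75 in control tumors, a difference of 1.55 ± 0.36. Its lowest DIO + HMB tumor lay 0.54 above the highest control tumor. Tsc22d3 (GILZ), which carries anti-inflammatory effects of glucocorticoids, had 5.94, 5.08, 4.42 and 5.27 in DIO + HMB tumors, against 4.34, 3.49 and 4.14 in control tumors, a difference of 1.19 ± 0.38. Its lowest DIO + HMB tumor, replicate 3, lay only 0.08 above the highest control tumor.

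Sgk1, a kinase of ion transport and cell survival, had 7.42, 7.50, 7.41 and 7.67 in DIO + HMB tumors, against 7.01, 6.37 and 7.09 in control tumors, a difference of 0.68 ± 0.17. Dusp1, a phosphatase that turns off MAP kinases, had 8.51, 9.02, 9.11 and 8.74 in DIO + HMB tumors, against 7.96, 8.01 and 8.21 in control tumors, a difference of 0.78 ± 0.20. In both genes every DIO + HMB tumor lay above every control tumor. The DIO + HMB tumors spanned 0.26 for Sgk1, against 0.72 in control, and 0.61 for Dusp1, against 0.25 in control. Klf9, a transcription factor that the receptor induces, differed by 0.80 ± 0.22 and Ampd3, an AMP deaminase, by 0.67 ± 0.18, both without overlap. Mt1 (metallothionein 1) was near the top of the scale, at 10.81 to 10.95 in DIO + HMB, against 10.49 to 10.66 in control. The clock gene Per1 had 9.16, 9.16, 7.76 and 9.17 in DIO + HMB tumors, against 7.97, 7.30 and 7.84 in control tumors, a difference of 1.11 ± 0.37. It overlapped because DIO + HMB replicate 3 lay among the control tumors, and the same tumor was the lowest of its group for Ddit4 (8.76, 8.07, 6.97 and 8.0 in DIO + HMB, against 7.12, 6.93 and 7.24 in control), an mTORC1 inhibitor that glucocorticoids induce. Fkbp5, a receptor co-chaperone and standard target, had 7.35 to 8.01 in DIO + HMB, against 6.87 to 7.69 in control, a difference of 0.52 ± 0.26 with overlap. Tat and Mt2 had lower means in DIO + HMB, with differences of -0.12 and -0.07.

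The tumors of the single-factor groups held intermediate values for many of these genes. The list median was 0.43 for DIO minus control and 0.47 for control + HMB minus control, and all 3 comparisons share the control arrays. Tsc22d3 was at 5.34, 4.59 and 5.46 in DIO and at 4.45, 4.73 and 5.70 in control + HMB, and both groups overlapped with DIO + HMB. Zbtb16 was at 4.07, 3.16 and 3.30 in DIO and at 3.37, 4.37 and 3.85 in control + HMB. Its DIO + HMB values lay above 5 of these 6 tumors, with DIO + HMB replicate 4 just under the highest. Of the 17 list genes with a RefSeq promoter (250 bases before to 50 after the start), 3 (17.6%) held the core ACANNNTGT of a glucocorticoid response element, against 7.90% of all genes with a promoter. This motif was chosen after the values were seen, reads the same on both strands, and a match in this window is a description of letters only. Sgk1 has 6 annotated promoters, and 1 that holds a match is shown (GRCm38.p6, chr10:21978422-21978721, plus strand), with the core in capitals, 127 bases before the start.
Sgk1: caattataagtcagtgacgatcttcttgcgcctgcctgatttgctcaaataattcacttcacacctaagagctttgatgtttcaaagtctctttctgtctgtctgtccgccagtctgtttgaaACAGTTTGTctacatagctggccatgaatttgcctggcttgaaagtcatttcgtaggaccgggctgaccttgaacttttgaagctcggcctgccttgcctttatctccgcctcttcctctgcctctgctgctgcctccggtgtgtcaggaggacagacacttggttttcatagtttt

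**Figure D4:**
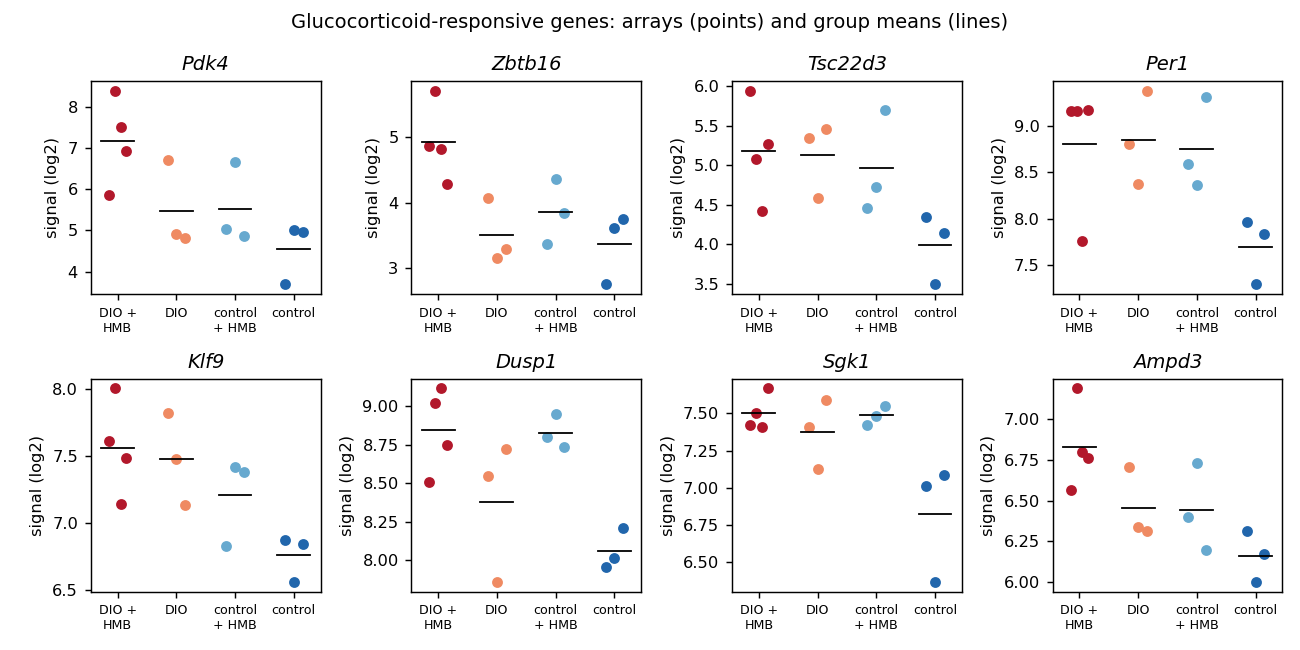
Log2 signal of 8 glucocorticoid-responsive genes in each tumor (points) with group means (lines), for DIO + HMB, DIO, control + HMB and control from left to right. In all panels but Per1, every DIO + HMB tumor lies above every control tumor, and Pdk4 spans 5.87 to 8.40 in DIO + HMB and 3.69 to 5.01 in control.

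Targets of the peroxisome proliferator-activated receptors, which burn and store fatty acids, were higher in 19 of 20 measured members. At unadjusted p under 0.05, 9 were higher and none lower, and 6 (30%) lay above all control tumors, against 8.35% of all genes, with 13 of the 20 in the upper 2 signal classes. The median difference was 0.53, and it was 0.21 with the adipocyte score in the model and 0.27 with array width in the model. Plin2, which coats lipid droplets in most cell types, had 9.95, 10.14, 9.90 and 9.85 in DIO + HMB tumors, against 9.37, 9.55 and 9.35 in control tumors, a difference of 0.54 ± 0.15. Slc25a20, which carries acylcarnitines into mitochondria, had 7.09, 7.38, 7.18 and 7.50 in DIO + HMB, against 6.74, 6.93 and 6.91 in control, a difference of 0.43 ± 0.14. Both kept the groups apart with narrow ranges. Acot2, a mitochondrial acyl-CoA thioesterase, had 8.57, 8.95, 8.80 and 8.95 in DIO + HMB, against 7.75, 8.33 and 7.50 in control, a difference of 0.96 ± 0.38, and Vnn1 (vanin 1) had 6.47, 5.13, 4.27 and 4.15 in DIO + HMB, against 3.46, 3.29 and 3.48 in control. Cpt1a, the gate of mitochondrial fatty acid oxidation, had 8.93 to 9.71 in DIO + HMB, against 8.29 to 9.08 in control, and its groups overlapped at control replicate 2. Angptl4, a secreted inhibitor of lipoprotein lipase, behaved likewise at 8.67, 9.70, 8.16 and 9.13 in DIO + HMB, against 7.01, 8.53 and 7.57 in control, a difference of 1.21 ± 0.46.

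Genes of lipid uptake and storage and of fatty acid oxidation had higher means in most members. Both lists share members with the targets of the peroxisome proliferator-activated receptors. Plin2 and Cd36 are also in the storage list, and Pdk4, Slc25a20, Cpt1a and Angptl4 are also in the oxidation list. Pdk4 counts among the glucocorticoid targets as well. The counts of these lists are therefore not independent. Of 19 genes of lipid storage and uptake, 17 were higher, 6 at unadjusted p under 0.05, and 5 without overlap, with a median of 0.37, or 0.21 with the adipocyte score in the model. Lipa, the lysosomal lipase, had 8.71, 9.14, 8.96 and 8.64 in DIO + HMB, against 7.93, 8.35 and 8.29 in control, a difference of 0.67 ± 0.18, and Npc1, which exports cholesterol from lysosomes, had 8.40, 8.56, 8.46 and 8.42 in DIO + HMB, against 8.23, 7.98 and 8.04 in control, a difference of 0.38 ± 0.11. The cholesterol exporter Abca1 had 7.39 to 8.23 in DIO + HMB, against 6.82 to 7.18 in control. In these 3 genes all DIO + HMB tumors were above control. Of 23 genes of fatty acid oxidation, 20 were higher, with 3 above and 1 below without overlap. The 1 below was Etfb, an electron carrier of the pathway, at 7.41, 7.63, 7.36 and 7.69 in DIO + HMB, against 7.87, 8.08 and 7.92 in control, a difference of -0.44 ± 0.13, while Hadha, a subunit of the trifunctional protein, was at 9.66, 9.79, 9.84 and 9.67 in DIO + HMB, against 9.18, 9.54 and 9.36 in control, a difference of 0.38 ± 0.13.

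Adipocyte genes had higher means in 18 of 18 members, but the tumors overlapped in 17 of them. The median difference was 1.07, and leaving out a single tumor took it from 0.51 without DIO + HMB replicate 2 to 1.93 without control replicate 2. Without DIO + HMB replicates 1 and 2 it was 0.38. Leptin (Lep), the hormone of fat mass, had 6.39, 9.72, 4.11 and 7.98 in DIO + HMB tumors, against 3.22, 5.84 and 3.64 in control tumors, a difference of 2.81 ± 1.13. Its 2 highest values were in DIO + HMB replicates 2 and 4, and control replicate 2 was above DIO + HMB replicate 3. Cd36, a fatty acid transporter of fat cells and macrophages, had 9.09, 10.87, 7.86 and 9.40 in DIO + HMB tumors, against 5.94, 9.47 and 7.29 in control tumors, a difference of 1.74 ± 0.77. The only member without overlap was Pparg, the receptor that forms fat cells, at 6.28, 7.51, 6.28 and 6.51 in DIO + HMB, against 5.81, 5.68 and 6.11 in control. The part of fat tissue in the differences of fat-handling genes was not tested beyond the model with the adipocyte score.

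Interferon-responsive genes were close to the background. Of 26 measured genes of the type I response, 20 had a higher mean, 2 were higher at unadjusted p under 0.05, and 3 (11.5%) lay above control without overlap, against 8.35% of all genes. The median of 0.15 was 0.05 after a further quantile normalization, -0.07 with array width in the model and 0.06 without control replicate 2. Beside Trim30a, these were Oasl2, an antiviral oligoadenylate synthetase-like protein, at 9.12, 9.22, 9.53 and 9.01 in DIO + HMB, against 8.80, 8.77 and 8.86 in control, and Irf9, a transcription factor of the response, at 7.84, 7.87, 7.80 and 7.62 in DIO + HMB, against 7.21, 7.56 and 7.58 in control. Both differences were small, at 0.41 ± 0.17 and 0.34 ± 0.16. Of 19 genes of the interferon gamma response, 13 had a higher mean, 1 was higher at unadjusted p under 0.05 and none was without overlap. The median there was 0.06, and it ran from -0.15 without control replicate 1 to 0.24 without control replicate 3. Of 19 genes of the first list with a RefSeq promoter, 10 (52.6%) held the interferon response element GAAANNGAA on either strand. In the second list 9 of 11 genes (81.8%) held it, and among all genes 9.76%. Trim30a, the member with the largest difference, has 2 annotated promoters, and 1 that holds the element is shown. The element is on the strand opposite to the one printed (GRCm38.p6, chr7:104465144-104465443, printed as the minus strand, on which the gene lies), so the capitals show its reverse complement.
Trim30a: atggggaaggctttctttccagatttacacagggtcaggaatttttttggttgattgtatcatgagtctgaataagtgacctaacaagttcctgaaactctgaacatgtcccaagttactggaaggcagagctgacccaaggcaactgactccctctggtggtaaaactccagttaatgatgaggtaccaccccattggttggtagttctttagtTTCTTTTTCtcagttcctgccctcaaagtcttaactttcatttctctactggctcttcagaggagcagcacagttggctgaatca

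Genes that build and quality-control proteins in the endoplasmic reticulum showed a mixed pattern. For asparagine-linked glycosylation, in which a sugar tree is built on a lipid and moved to proteins, 27 of 33 genes had a higher mean, 7 were higher at unadjusted p under 0.05 and 10 (30.3%) lay above control without overlap, with none below. All but 2 of the 33 lie in the upper 2 signal classes, where 14.4% to 15.7% of genes lay above. Alg11, a mannosyltransferase, had 6.81, 6.76, 6.87 and 6.96 in DIO + HMB tumors, against 6.41, 6.60 and 6.01 in control tumors, a difference of 0.51 ± 0.14. Dpagt1, which starts the sugar tree, had 7.30, 7.54, 7.50 and 7.64 in DIO + HMB, against 6.49, 7.18 and 7.09 in control, a difference of 0.57 ± 0.20, and Alg12 and Alg9, mannosyltransferases of its later steps, differed by 0.51 ± 0.17 and 0.38 ± 0.13. The lowest DIO + HMB tumor in all 4 of these genes was replicate 1 or 2. The median was 0.21, and it was 0.11 without control replicate 1 and -0.03 with array width in the model.

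Of 24 genes of the unfolded protein response, 16 had a higher mean, with 6 above (25%) and 2 below without overlap. Of the 24, 22 lie in the upper 2 signal classes. There, 62.4% to 67.2% of genes had a higher mean, so the count of higher means was at the background, and 14.4% to 15.7% lay above. The median was 0.11, or 0.03 after a further quantile normalization and 0.05 with array width in the model. Edem1, which sends misfolded glycoproteins to degradation, had 8.39, 8.09, 8.32 and 8.23 in DIO + HMB tumors, against 7.21, 7.74 and 7.91 in control tumors, a difference of 0.63 ± 0.16. Herpud1, a membrane protein of the same pathway, had 9.85, 9.96, 9.63 and 9.87 in DIO + HMB tumors, against 9.30, 9.27 and 9.28 in control tumors, a difference of 0.54 ± 0.14. Xbp1, the transcription factor of this response, had 8.75, 8.71, 9.0 and 8.90 in DIO + HMB, against 8.28, 8.05 and 8.56 in control, a difference of 0.54 ± 0.15. Some chaperones ran the other way: Hsp90b1 was at 10.96, 10.99, 11.06 and 11.10 in DIO + HMB, against 11.10, 11.28 and 11.17 in control and Dnajb11 at 7.65, 7.42, 7.67 and 7.55 in DIO + HMB, against 7.67, 7.69 and 8.21 in control, both without overlap, although the nearest tumors of both genes were equal in the printed digits. The other members above control were Syvn1 and Sel1l, of the degradation complex that Herpud1 joins, and Sec61a1, the translocation channel, at 10.43, 10.51, 10.53 and 10.58 in DIO + HMB, against 10.17, 10.03 and 10.31 in control. The letters CCACGN are the part of an endoplasmic reticulum stress element that ATF6 and XBP1 bind. Of 20 list genes with a RefSeq promoter, 16 (80%) held these letters on either strand, against 35.4% of all genes. The letters were chosen after the values were seen and can overlap the hypoxia element ACGTGN. Herpud1 is shown (GRCm38.p6, chr8:94386179-94386478, plus strand) with its 2 matches in capitals, 122 and 46 bases before the start.
Herpud1: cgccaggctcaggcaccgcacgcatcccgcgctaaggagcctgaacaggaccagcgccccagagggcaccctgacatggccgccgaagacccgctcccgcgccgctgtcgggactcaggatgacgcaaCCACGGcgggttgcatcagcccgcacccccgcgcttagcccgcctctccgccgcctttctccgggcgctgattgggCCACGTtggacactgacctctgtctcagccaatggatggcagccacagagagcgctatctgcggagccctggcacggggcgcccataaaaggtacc

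For prenylation, the step that Ggps1 feeds, 10 of 15 genes had a higher mean and 4 (26.7%) lay above control without overlap. Of the 15, 14 lie in signal classes 4 and 5. There, 62.4% to 67.2% of genes had a higher mean, so the count of higher means was at the background, and 14.4% to 15.7% lay above. Icmt, which methylates prenylated proteins, had 6.31, 6.49, 6.49 and 6.32 in DIO + HMB, against 6.03, 5.81 and 6.19 in control, a difference of 0.39 ± 0.15, and Chml, an escort protein of Rab prenylation, had 5.62, 6.04, 5.59 and 5.88 in DIO + HMB, against 5.23, 5.58 and 5.30 in control, a difference of 0.41 ± 0.17. The list median of 0.16 became 0.01 after a further quantile normalization and 0.02 with array width in the model. Cholesterol synthesis, which shares the upstream pathway, had 11 of 19 genes higher, 1 without overlap and a median of 0.01. Of its 15 genes with a RefSeq promoter, 1 (6.67%) held the sterol element TCACNCCAC, against 1.44% of all genes.

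For interleukin-6 family signaling, of 20 measured genes, 17 had a higher mean, 6 were higher at unadjusted p under 0.05 and 6 (30%) lay above control without overlap, with 14 of the 20 in the upper 2 signal classes. Stat3, the transcription factor of the pathway, had 10.13, 10.26, 10.27 and 10.06 in DIO + HMB tumors, against 9.46, 9.69 and 9.73 in control tumors, a difference of 0.55 ± 0.15. Il6ra, the ligand-binding receptor chain, had 9.15, 9.08, 9.06 and 9.07 in DIO + HMB tumors, against 8.63, 8.51 and 8.32 in control tumors, a difference of 0.60 ± 0.18. Il6st, the signaling chain gp130, had 9.75, 9.92, 10.01 and 9.83 in DIO + HMB, against 9.39, 9.68 and 9.56 in control, a difference of 0.33 ± 0.12. The DIO + HMB tumors spanned 0.21 for Stat3, 0.08 for Il6ra and 0.25 for Il6st, and none reached down to a control tumor. Lifr, the receptor of leukemia inhibitory factor, had 6.86, 7.26, 6.23 and 6.65 in DIO + HMB, against 5.99, 5.34 and 5.49 in control, a difference of 1.14 ± 0.34, and Osmr and Jak1 were also above control in every tumor. The median of the list was 0.24, and with a tumor left out it ran from 0.15 without control replicate 1 to 0.40 without control replicate 3. It was 0.12 after a further quantile normalization and 0.15 with array width in the model.

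Cytokine and pattern receptors included several genes without overlap. Of 21 interferon and interleukin receptors, 18 had a higher mean and 5 (23.8%) lay above control, with 20 of the 21 in the upper 2 signal classes. Il17ra had 7.96, 7.53, 7.77 and 7.63 in DIO + HMB, against 7.32, 7.0 and 7.52 in control, a difference of 0.45 ± 0.15, and Il4ra, the receptor of IL-4 and IL-13, had 9.35, 9.07, 8.99 and 9.17 in DIO + HMB, against 8.82, 8.85 and 8.85 in control, a difference of 0.31 ± 0.13. Of 28 toll-like receptors and inflammasome sensors, 19 had a higher mean, 5 (17.9%) lay above and 1 below, with 18 of the 28 in the upper 2 signal classes. There, 14.4% to 15.7% of genes lay above and 62.4% to 67.2% had a higher mean. The median of this list was 0.11, and -0.04 after a further quantile normalization. With a tumor left out it ran from 0.02 without control replicate 2 to 0.24 without control replicate 3. Tlr8, a sensor of RNA in endosomes, had 6.60, 7.10, 6.98 and 6.84 in DIO + HMB, against 6.23, 5.64 and 6.53 in control, a difference of 0.75 ± 0.19. Tlr5, the flagellin receptor, had 5.53, 5.52, 5.14 and 5.45 in DIO + HMB, against 5.07, 4.02 and 4.37 in control, a difference of 0.92 ± 0.28, and Tlr1 differed by 0.49 ± 0.14. The member below was the shared adaptor Myd88, at 8.72, 8.74, 8.43 and 8.58 in DIO + HMB, against 8.78, 8.93 and 8.79 in control.

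Chemokine genes had higher means in 25 of 31 ligands, with 6 above control (19.4%) and 1 below. Cxcl12, a fibroblast chemokine that binds CXCR4, had 7.81, 6.82, 6.00 and 6.08 in DIO + HMB tumors, against 5.06, 4.27 and 5.02 in control tumors, a difference of 1.89 ± 0.59. Cxcl13, which attracts B cells, had 10.23, 6.39, 7.29 and 7.14 in DIO + HMB tumors, against 5.41, 5.91 and 5.65 in control tumors, a difference of 2.10 ± 0.71. DIO + HMB replicate 1, the tumor rich in lymph node genes, was highest for both, and the other DIO + HMB tumors were still above control. Among the ligands of CXCR2, Cxcl3 had 4.70, 4.80, 4.83 and 4.70 in DIO + HMB, against 3.66, 3.53 and 4.56 in control, a difference of 0.84 ± 0.27 without overlap, and Cxcl5 had 8.48, 8.77, 8.22 and 8.78 in DIO + HMB, against 7.30, 7.48 and 8.29 in control, a difference of 0.87 ± 0.28 with overlap at DIO + HMB replicate 3. Their highest control tumor was replicate 3. The other ligands of this receptor that the list holds, Cxcl1, Cxcl2 and Ppbp, overlapped, with differences of -0.04, 0.59 and 0.48. Cxcr4 itself had 8.97, 8.25, 7.77 and 7.93 in DIO + HMB, against 7.59, 7.13 and 7.63 in control, a difference of 0.78 ± 0.27.

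Neutrophil genes were split in direction. Of 19 genes, 15 had a higher mean, and 2 lay above and 2 below without overlap. Cxcr2 and the growth factor receptor Csf3r (7.32, 7.82, 7.38 and 7.45 in DIO + HMB, against 6.84, 6.70 and 7.09 in control, a difference of 0.62 ± 0.24) were above, whereas Ly6g, the surface marker used to define mouse neutrophils, was at 2.81, 2.32, 2.86 and 2.70 in DIO + HMB, against 4.11, 3.02 and 3.26 in control, a difference of -0.79 ± 0.23, and the granule protease gene Elane at 3.05, 3.06, 2.50 and 2.94 in DIO + HMB, against 3.98, 3.18 and 3.38 in control, a difference of -0.63 ± 0.21. Lcn2, which is also induced by glucocorticoids, had 6.90, 5.87, 4.37 and 5.89 in DIO + HMB, against 3.11, 5.25 and 4.36 in control. Ly6g and Elane were weakly expressed in all tumors.

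Of 17 core macrophage genes, 13 had a higher mean, with 1 above and 1 below and a median of 0.17, which was 0.06 without control replicate 2 and 0.01 with array width in the model. Of 18 genes of M2-like, tissue-repair macrophages, 16 had a higher mean and 4 (22.2%) lay above control. Cd163, the hemoglobin scavenger receptor, had 5.18, 6.20, 5.30 and 5.94 in DIO + HMB tumors, against 4.70, 4.70 and 4.09 in control tumors, a difference of 1.16 ± 0.47. Folr2, the folate receptor of resident macrophages, had 6.20, 8.15, 6.10 and 6.43 in DIO + HMB, against 5.25, 4.90 and 5.03 in control, a difference of 1.66 ± 0.94. For Folr2 the DIO + HMB tumors spanned 2.05, with replicate 2 highest. Of 15 genes of M1-like, inflammatory macrophages, 11 had a higher mean, 1 lay above and the median was 0.06, or 0.31 without control replicate 3 and -0.24 with array width in the model. The complement genes Serping1, the C1 inhibitor, and Cfb, of the alternative pathway, were at 9.31, 9.64, 8.96 and 8.71 in DIO + HMB, against 7.78, 7.38 and 7.93 in control and at 8.62, 8.68, 8.22 and 8.23 in DIO + HMB, against 7.54, 7.89 and 7.95 in control, and 4 of 16 complement genes (25%) lay above control. The complement median of 0.36 was -0.0026 with array width in the model and 0.21 without control replicate 1.

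Antigen presentation by MHC class II was high in every tumor. Of 11 genes, 9 had a higher mean and 3 (27.3%) lay above control, with 1 at unadjusted p under 0.05. H2-DMb1, a chain of the peptide loader, had 5.34, 5.31, 5.76 and 5.24 in DIO + HMB, against 4.49, 5.17 and 4.62 in control, a difference of 0.65 ± 0.23. The class II chains H2-Ab1 and H2-Aa were near the top of the scale, at 12.23, 12.32, 12.36 and 12.20 in DIO + HMB, against 11.96, 12.05 and 12.18 in control and at 10.50, 10.39, 10.49 and 10.37 in DIO + HMB, against 10.14, 10.24 and 10.34 in control, with differences of 0.21 and 0.19. Class II genes are shared by B cells, macrophages and dendritic cells. The class II score was 0.96 in DIO + HMB replicate 1, the tumor rich in B cell genes, against -0.25, 0.13 and -0.24 in replicates 2 to 4, and the list median of 0.19 was 0.05 without it. Of 22 C-type lectin and scavenger receptors, 19 had a higher mean and 3 (13.6%) lay above control, among them Scara3, at 6.58, 6.77, 6.59 and 6.48 in DIO + HMB, against 5.83, 5.65 and 5.82 in control, a difference of 0.84 ± 0.23, and Clec4d, a lectin of myeloid cells, at 5.62, 4.32, 4.56 and 4.42 in DIO + HMB, against 3.61, 3.74 and 4.23 in control. Of 22 immediate early genes, 17 had a higher mean and 3 (13.6%) lay above control. Beside Dusp1 these were Ccn2, a matrix-linked growth regulator, at 8.49, 7.66, 7.08 and 8.04 in DIO + HMB, against 6.76, 6.36 and 7.04 in control, a difference of 1.10 ± 0.33, and Jun, a subunit of AP-1, at 8.34, 8.39, 9.01 and 8.55 in DIO + HMB, against 7.77, 8.23 and 8.05 in control, a difference of 0.56 ± 0.19. Mast cell and eosinophil genes had the lowest median of the 67 lists, -0.19, with 1 of 15 members below control. This median rested on single tumors: it ran from -0.69 without DIO + HMB replicate 3 to 0.31 without control replicate 3. It was 0.06 without DIO + HMB replicate 4 and -1.75 with array width in the model. The member below was Ccr3, the eotaxin receptor, at 2.88, 2.70, 2.60 and 2.45 in DIO + HMB, against 3.17, 3.42 and 3.35 in control, and the mast cell gene Fcer1a, a chain of the IgE receptor, overlapped at 3.88, 3.74, 5.50 and 3.62 in DIO + HMB, against 4.56, 3.21 and 6.21 in control. Replicate 3 was the highest of its group for Fcer1a in DIO + HMB and in control, the tumors that also held the most skeletal muscle signal.

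T cell and cytotoxic genes overlapped between the groups. Of 18 genes of the T cell receptor complex, 15 had a higher mean but 1 lay above control, and the median of 0.32 was 0.02 without DIO + HMB replicates 1 and 2. Cd3e, a chain of the complex, had 10.26, 8.79, 8.69 and 8.85 in DIO + HMB tumors, against 9.16, 9.0 and 9.35 in control tumors, a difference of -0.02 ± 0.34. Replicate 1 lay above all control tumors and the other 3 DIO + HMB tumors lay below them. Cd4, which helper T cells and some macrophages carry, was the member above control, at 8.74, 7.87, 8.26 and 8.15 in DIO + HMB, against 7.70, 7.17 and 7.39 in control, and Cd8a, of cytotoxic T cells, was at 8.59, 7.42, 7.73 and 7.55 in DIO + HMB, against 7.40, 7.90 and 8.04 in control. Of 16 cytotoxic effector genes, 13 had a higher mean, with 1 above and 1 below, and none of the 12 NK cell genes was without overlap. Of 18 immune checkpoint genes, 17 had a higher mean and 3 (16.7%) lay above. Beside Havcr2 these included its ligand Lgals9, galectin 9, at 9.94, 9.89, 9.96 and 10.06 in DIO + HMB, against 9.29, 9.59 and 9.74 in control, a difference of 0.42 ± 0.19. Pdcd1, which encodes PD-1, overlapped, at 7.06, 6.18, 6.41 and 6.70 in DIO + HMB, against 5.51, 5.88 and 6.70 in control. The checkpoint median of 0.34 was 0.10 with array width in the model and 0.10 without control replicate 1. For regulatory T cells, 10 of 11 genes had a higher mean and 1 lay above control: Lrrc32 (GARP), a carrier of latent TGF-beta on regulatory T cells and endothelium, at 6.27, 6.77, 6.68 and 6.15 in DIO + HMB, against 5.53, 5.56 and 5.80 in control, a difference of 0.84 ± 0.26. Foxp3, which defines the lineage, overlapped, at 7.48, 6.26, 6.81 and 6.09 in DIO + HMB, against 6.56, 5.31 and 7.34 in control.

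Genes of vessel walls and fibroblasts had higher means in most members. Of 16 smooth muscle and pericyte genes, 15 were higher, 4 at unadjusted p under 0.05, and 5 (31.2%) lay above control. Of the 16, 8 lie in the upper 2 signal classes, where 14.4% to 15.7% of genes lay above. Acta2, smooth muscle actin, which also marks activated fibroblasts, had 9.39, 9.70, 9.20 and 9.29 in DIO + HMB tumors, against 8.27, 7.98 and 8.13 in control tumors, a difference of 1.27 ± 0.38. Myh11, the smooth muscle myosin, had 5.76, 5.99, 5.86 and 5.09 in DIO + HMB tumors, against 4.38, 4.55 and 5.03 in control tumors, a difference of 1.02 ± 0.24. Abcc9, a channel subunit of pericytes, had 7.03, 7.60, 6.65 and 6.65 in DIO + HMB, against 6.30, 6.24 and 6.38 in control, a difference of 0.68 ± 0.20, and Tagln and Cnn1 were also above control in every tumor. The list median was 0.38, and 0.31 without DIO + HMB replicates 1 and 2.

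Of 21 endothelial genes, 20 had a higher mean, 6 at unadjusted p under 0.05, and 4 (19%) lay above control. Of the 21, 14 lie in the upper 2 signal classes, where 14.4% to 15.7% of genes lay above. Plvap, a protein of endothelial fenestrae, had 7.88, 8.08, 8.27 and 7.66 in DIO + HMB, against 7.22, 7.41 and 7.46 in control, a difference of 0.61 ± 0.22, and Eng (endoglin) had 8.30, 8.89, 8.65 and 8.38 in DIO + HMB, against 8.16, 8.11 and 7.92 in control, a difference of 0.49 ± 0.18. The lymphatic genes Lyve1, at 7.41, 7.54, 5.0 and 6.17 in DIO + HMB, against 4.24, 4.70 and 4.01 in control, and Flt4, at 4.96, 5.31, 4.92 and 4.85 in DIO + HMB, against 4.78, 4.65 and 4.37 in control, completed the set. The endothelial score of replicate 2 was 0.75, against 0.05 to 0.07 in DIO + HMB replicates 1, 3 and 4, and the median of 0.40 was 0.14 without replicates 1 and 2. Pecam1, a general endothelial marker, had 8.30, 8.36, 7.82 and 7.61 in DIO + HMB, against 7.48, 7.67 and 7.74 in control, with overlap.

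Of 25 genes of cancer-associated fibroblasts, 23 had a higher mean, 3 at unadjusted p under 0.05, and 5 (20%) lay above control. Of the 25, 18 lie in the upper 2 signal classes, where 14.4% to 15.7% of genes lay above. Sfrp1, a Wnt inhibitor, had 7.21, 7.07, 6.09 and 6.80 in DIO + HMB, against 5.89, 4.26 and 5.70 in control, a difference of 1.51 ± 0.62. The median of 0.53 moved with single tumors: it was 0.87 without control replicate 1 and 0.31 without control replicate 2. Collagen chains did not separate the groups, with 1 of 20 above control, and Col1a1, the main chain of type I collagen, had 11.40, 10.87, 11.73 and 10.69 in DIO + HMB, against 11.88, 9.50 and 11.32 in control. Of 18 genes of epithelial-mesenchymal transition, 16 had a higher mean and 4 lay above control (22.2%), with 13 of the 18 in the upper 2 signal classes. The median was 0.27, or 0.13 with array width in the model. Twist2, a transcription factor of mesenchymal cells, had 3.29, 3.43, 3.97 and 3.06 in DIO + HMB, against 2.38, 2.29 and 2.16 in control, a difference of 1.16 ± 0.29, and Vim (vimentin) had 12.25, 12.31, 12.48 and 12.30 in DIO + HMB, against 12.06, 12.09 and 12.08 in control, a difference of 0.26 ± 0.11.

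Genes of respiration and translation had negative medians, as had 7 other lists. Of 57 subunits of the respiratory chain and ATP synthase, 39 had a lower mean, 15 were lower at unadjusted p under 0.05 against 6.76% of all genes, and 13 (22.8%) lay below control without overlap, against 6.59% of all genes and 3.79% to 7.17% in the upper 2 signal classes, where 49 of them lie. Ndufb10, of complex I, had 6.44, 6.06, 6.04 and 6.46 in DIO + HMB tumors, against 6.81, 6.88 and 6.96 in control tumors, a difference of -0.64 ± 0.14. Ndufa1, also of complex I, had 7.41, 7.39, 7.27 and 7.46 in DIO + HMB tumors, against 7.99, 7.75 and 8.19 in control tumors, a difference of -0.60 ± 0.14. Uqcrh, of complex III, had 7.40, 7.20, 7.04 and 7.41 in DIO + HMB, against 7.93, 7.66 and 7.92 in control, a difference of -0.57 ± 0.16, and Atp5l, of ATP synthase, had 8.48, 8.22, 8.27 and 8.33 in DIO + HMB, against 8.73, 8.82 and 8.91 in control, a difference of -0.50 ± 0.14. The 3 members above control were Uqcrc2, a core protein of complex III, at 8.94, 9.06, 8.98 and 8.88 in DIO + HMB, against 8.62, 8.70 and 8.81 in control, Atp5d, of the ATP synthase stalk, at 7.34, 7.34, 7.28 and 7.33 in DIO + HMB, against 7.03, 7.08 and 6.93 in control, and Atp5g1, of its membrane ring, with a difference of 0.23. The median was -0.09, and it ranged from -0.17 to -0.04 when each tumor of the 2 groups was left out.

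Of 48 mitochondrial ribosomal proteins, 36 had a lower mean and 7 (14.6%) lay below control, with 4 above. The median was -0.13, and -0.03 without control replicate 3. Mrpl13 had 7.22, 7.34, 7.54 and 7.67 in DIO + HMB, against 7.93, 8.06 and 7.86 in control, a difference of -0.51 ± 0.16, and Mrps26 had 7.42, 7.12, 7.33 and 7.50 in DIO + HMB, against 7.93, 7.59 and 7.85 in control, a difference of -0.45 ± 0.13. Of 48 measured cytosolic ribosomal proteins, 35 had a lower mean and 10 (20.8%) lay below, with 4 above. Rps20 had 5.14, 4.41, 4.55 and 5.20 in DIO + HMB tumors, against 5.67, 5.93 and 5.84 in control tumors, a difference of -0.99 ± 0.22, and Rps28 had 10.23, 9.58, 10.20 and 10.09 in DIO + HMB, against 10.68, 10.41 and 10.94 in control, a difference of -0.65 ± 0.21. Rps27 went the other way, at 6.49, 6.34, 6.27 and 6.37 in DIO + HMB, against 4.77, 5.62 and 6.03 in control. Ribosomal protein genes have many processed copies in the genome, so their probe sets may also read those. Of 30 proteasome subunits, 20 had a lower mean, with 5 below (16.7%) and 3 above, and Psmb1, a core subunit, had 9.33, 9.18, 9.23 and 9.50 in DIO + HMB, against 9.63, 9.70 and 9.67 in control, a difference of -0.36 ± 0.12. Core and linker histone genes were lower in 12 of 12, with 1 without overlap and a median of -0.19, which was -0.09 without control replicate 3 and -0.33 without control replicate 2.

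Genes close to HMB itself held few differences. Of 20 genes of leucine breakdown and HMB use, 12 had a higher mean, 2 lay above and 2 below without overlap, and the median was 0.07, or -0.07 after a further quantile normalization. Mccc1, a subunit of the carboxylase that degrades the leucine skeleton, had 6.62, 6.81, 6.54 and 6.55 in DIO + HMB tumors, against 6.30, 6.18 and 6.28 in control tumors, a difference of 0.37 ± 0.12. Dbt and Bckdha are subunits of the branched-chain ketoacid dehydrogenase, which commits leucine to breakdown. Dbt had 7.48, 7.40, 7.56 and 7.65 in DIO + HMB, against 6.88, 7.26 and 7.26 in control, a difference of 0.39 ± 0.12, whereas Bckdha had 7.08, 7.35, 7.29 and 7.12 in DIO + HMB, against 7.51, 7.48 and 7.49 in control, a difference of -0.28 ± 0.11. Subunits of the same enzyme thus lay on opposite sides of control. Bcat2, the first transaminase, was also below, at 5.98, 6.00, 6.22 and 6.26 in DIO + HMB, against 6.26, 6.33 and 6.51 in control, with the nearest tumors equal in the printed digits.

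Among 27 genes of amino acid sensing by mTORC1, 18 had a higher mean and 1 (3.7%) lay above control, which is no more than the background of 8.35%. That member was Flcn, folliculin, at 7.23, 7.37, 7.25 and 7.13 in DIO + HMB, against 6.82, 7.02 and 6.88 in control, a difference of 0.34 ± 0.13. Sesn2, a leucine sensor that inhibits mTORC1, had 6.27, 6.66, 6.42 and 6.94 in DIO + HMB, against 5.61, 5.59 and 6.32 in control, a difference of 0.73 ± 0.25, and it overlapped at control replicate 3. Of 21 genes of insulin and IGF signaling, 17 had a higher mean and 5 (23.8%) lay above control. Foxo1, a transcription factor that insulin keeps out of the nucleus, had 9.11, 9.15, 8.48 and 8.85 in DIO + HMB tumors, against 8.28, 8.42 and 8.31 in control tumors, a difference of 0.56 ± 0.18, and Akt2, an insulin-activated kinase, had 7.89, 8.15, 7.97 and 7.92 in DIO + HMB, against 7.79, 7.82 and 7.47 in control. Of 22 genes of muscle atrophy and autophagy, 20 had a higher mean and 5 (22.7%) lay above. Among these were Tfeb, a regulator of lysosome genes, at 3.51, 3.52, 3.47 and 3.49 in DIO + HMB, against 3.19, 3.10 and 3.09 in control, and Ctsb, the lysosomal protease cathepsin B, at 11.55, 12.01, 11.90 and 11.65 in DIO + HMB, against 11.33, 11.39 and 11.42 in control. In this list and in that of insulin and IGF signaling, 18 members lie in the upper 2 signal classes. There, 14.4% to 15.7% of genes lay above and 62.4% to 67.2% had a higher mean. The atrophy and autophagy median of 0.18 was 0.10 after a further quantile normalization and -0.01 with array width in the model. The insulin and IGF median of 0.18 was 0.11 and 0.26 in the same order.

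Proliferation genes did not separate the groups. None of 23 cell division genes was without overlap or had an unadjusted p under 0.05, and Mki67, the proliferation marker, had 9.51, 9.45, 9.88 and 9.89 in DIO + HMB, against 9.51, 9.69 and 9.75 in control. Of 27 DNA replication genes, 15 had a higher mean and 1 lay below. Hypoxia-induced genes had a higher mean in 19 of 22, with 3 above control (13.6%) and a median of 0.19, or 0.09 with array width in the model. Kdm3a, a histone demethylase induced by low oxygen, had 8.20, 8.17, 8.07 and 8.13 in DIO + HMB, against 7.72, 7.65 and 7.76 in control, a difference of 0.43 ± 0.17. Of 18 genes of the hypoxia list with a RefSeq promoter, 13 (72.2%) held the hypoxia element ACGTGN, against 21.8% of all genes. Glycolysis and lactate export had 17 of 17 genes with a higher mean, 3 above (17.6%), and a median of 0.25 that became 0.01 with array width in the model. Of 23 targets of ATF4, the factor of amino acid shortage, 14 had a higher mean and none was without overlap. Of the 21 with a RefSeq promoter, 7 (33.3%) held the ATF4 element TGATGNAA, against 4.51% of all genes. Of 17 circadian clock genes, 15 had a higher mean and 1 lay above. B cell and lymph node lists, with medians of 0.96 and 0.57, were 0.05 and 0.08 without DIO + HMB replicates 1 and 2.

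Receptor genes that a pancreatic tumor is not known to use gave the size of the difference at low signal. Of 1105 odorant receptors, 294 had a higher mean, 12 lay above and 106 (9.59%) below control without overlap, and the median was -0.13. All but 1 lay under the upper 2 signal classes. For 289 vomeronasal receptors the median was -0.13, with 5 above and 20 below (6.92%). After a further quantile normalization the medians were -0.03 and -0.04, and with array width in the model -0.0041 and -0.05. Lower values of weakly expressed genes in DIO + HMB, those among the 12 lower genes included, stood beside this shift.

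**Figure D5:**
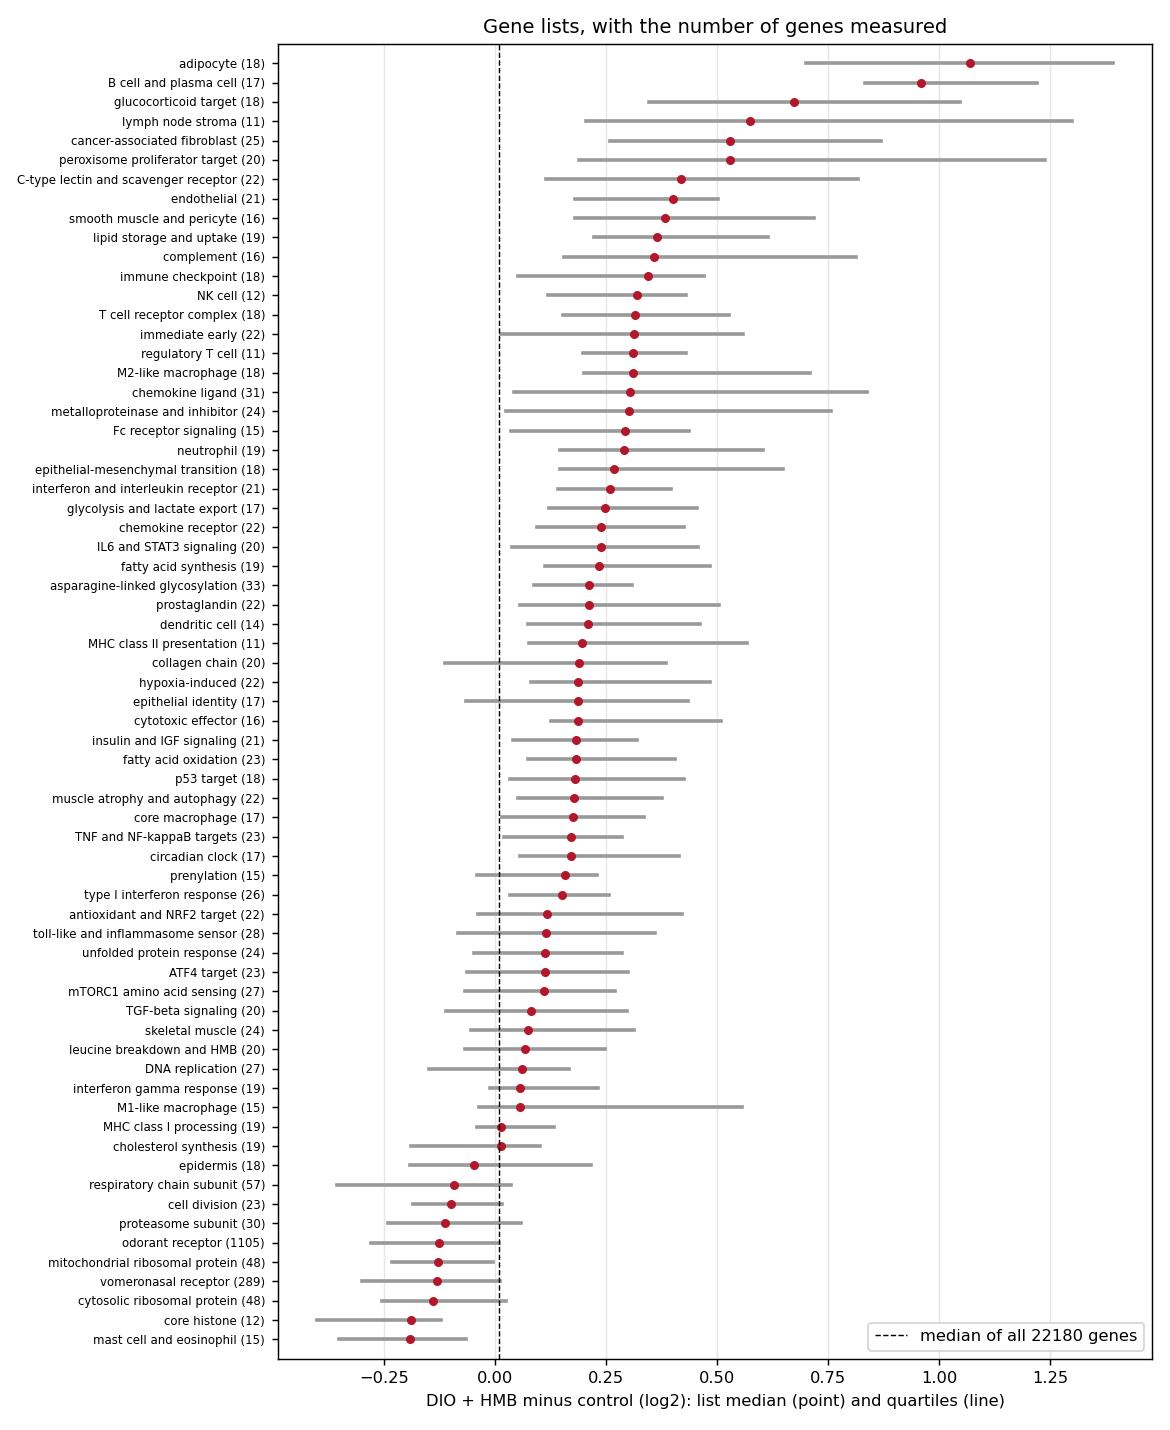
Each row is a gene list with the number of genes measured, the point is the median of DIO + HMB minus control (log2) over its genes, the line spans the quartiles and the dashed line is the median of all 22180 genes, 0.008. Of the 67 lists, 57 have a median above 0, led by adipocyte, B cell and glucocorticoid target genes, and 10 have a median below 0, among them ribosomal, respiratory chain and proteasome genes.

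The single-factor groups place the combined difference. At unadjusted p under 0.05, DIO minus control had 955 higher and 762 lower genes, control + HMB minus control 1601 higher and 936 lower, and DIO + HMB minus control 1774 higher and 1499 lower, all against the same 3 control arrays. Between the treated groups, DIO + HMB minus control + HMB had 207 higher and 426 lower genes, and DIO + HMB minus DIO 740 higher and 831 lower. None of these comparisons had a gene past the adjusted threshold. Mean array width was 2.522 in control, 2.559 in DIO, 2.595 in control + HMB and 2.6 in DIO + HMB. The part of width in the order of these counts was not tested. The interaction of diet and HMB, which asks whether the combined difference departs from the sum of the single ones, had a lowest adjusted p of 0.933 over all genes, with 361 and 707 genes at unadjusted p under 0.05 with positive and with negative values.

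For the leading genes the single-factor differences varied. Kctd21 differed from control by 1.27 in DIO and by 1.67 in control + HMB, against 1.52 in DIO + HMB. Trim30a differed by 1.5 in DIO and 1.08 in control + HMB, Ggps1 by 0.62 and 0.79 in the same order, and Tlcd1 by -0.62 and -0.75. In these genes each single-factor group already held much of the difference. Cxcr2 differed by 0.04 in DIO and by 0.71 in control + HMB, against 1.23 in DIO + HMB. Xcl1 showed the opposite split, with -1.10 in DIO, -0.21 in control + HMB and -0.97 in DIO + HMB. Pdk4 differed by 0.93 in DIO, by 0.97 in control + HMB and by 2.63 in DIO + HMB, and the DIO tumors were at 6.72, 4.91 and 4.81 and the control + HMB tumors at 5.03, 6.67 and 4.86. Tcstv3 differed by -0.23 in DIO and -0.15 in control + HMB, against -0.85 in DIO + HMB. Whether these splits differ beyond the spread was tested only through the interaction, in which no gene passed.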

How the data were processed

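Each array (Affymetrix Mouse Gene 2.1 ST) measured total RNA of a whole subcutaneous tumor. The deposited values, made by the authors with RMA, are log2 signals after background subtraction, quantile normalization and summary by probe set. Their notes name affy and limma, and neither versions nor a genome build are given in the sources used here. Because RMA equalizes the arrays, a value compares a gene between tumors, not genes with each other.

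Of 41345 probe sets, 23521 carried a single gene symbol in the platform annotation, 1816 several and 16008 none. The single-symbol probe set with the highest mean represented each of 22180 genes, without a filter on signal. Array medians ran from 3.65 to 3.75, and array pairs correlated at r = 0.971 to 0.991. All 13 arrays entered 1 model of 4 group means, which left 9 residual degrees of freedom (limma 3.58.1, R 4.3.3), with two-sided tests and Benjamini-Hochberg adjustment over all genes at 0.05. Differences are DIO + HMB minus control on the log2 scale with the SE of the model. The number of arrays limits the precision.

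The model was tested on simulated data of the same size for this comparison. It recovered 6%, 76%, 86% and 94% of 50 genes each shifted by 0.5, 1, 1.5 and 2, with noise independent between genes, and made 11 false calls. These shares hold for simulated data with many shifted genes. In the real data no gene passed, and a gene needed a difference of 1.45 at the median SE to pass on its own. The shares are therefore not the power of the real comparison.

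Named genes were the 12 with the lowest p in each direction, since none passed, and up to 4 members of lowest p per list in the direction of its median. Further members were chosen after their values were seen. The members and the 67 lists were chosen with earlier results of these data known. Of 1391 different genes listed outside the odorant and vomeronasal receptors, 1266 were measured. Some genes are members of several lists, so the counts of such lists are not independent. A further list is not reported here. Promoters and microRNAs came from RefSeq (GRCm38.p6). Alternatives were another normalization, array width, a filter, other probe set choices, variance settings, the methods' unpaired t statistic, a replicate block and leaving out arrays.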

Additional observations from a re-analysis of the deposited data

Results flagged for a closer look

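Among the 4 DIO + HMB tumors, a single tumor lay far from the other 3 in 9 of 67 list scores and in 8 of 150 genes, by Dixon's criterion, which singles out about 1 in 20 groups by chance. Replicate 1 stood apart in the scores of B cells and plasma cells (3.34), lymph node stroma (2.26), epithelial identity (0.97), epidermis (0.54) and chemokine receptors (0.52). Replicate 2 stood apart in the endothelial score (0.75), replicate 3 in the skeletal muscle (3.14) and epithelial-mesenchymal transition scores (0.37), and replicate 4 in the cancer-associated fibroblast score (-0.18). Krt14, a basal keratin of skin that was chosen after its values were seen, had 8.80, 2.76, 3.92 and 2.93 in DIO + HMB, against 3.20, 2.17 and 4.05 in control. The skin markers Krt10 and Lor, at 3.13 and 2.23 in replicate 1, against 3.58 to 3.89 and 2.33 to 3.12 in control, were not high in it.

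Of the genes, Cd3e was at 10.26 and Il6ra at 9.15 in replicate 1, and Folr2 was at 8.15 in replicate 2. Replicate 3 was high for Fcer1a (5.50) and low for Per1 (7.76), Mt2 (10.95) and Atp5d (7.28), and replicate 4 was low for Nlrp10 (2.92). For Il6ra and Atp5d the 4 tumors were so close together that a small gap was enough. Whether adjacent tissue was taken along with these tumors was not tested.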

How the results depend on the processing

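Of the 24 leading genes, 14 had a value in all 25 alternatives and 10 in all but the filter on weak expression, and each kept its direction wherever it had one, and Kctd21 alone of them passed the adjusted threshold in any, with 1 array left out. Over all genes, leaving out 1 array gave 0 to 1 higher and 0 to 3 lower genes past the adjusted threshold, 1311 to 1883 higher and 1213 to 1558 lower genes at unadjusted p under 0.05, and 2273 to 3359 genes with all DIO + HMB tumors above and 1939 to 2775 below, the last counts being larger because fewer tumors are compared. Without DIO + HMB arrays 1 and 2, an alternative chosen after seeing the data, 960 genes were lower at unadjusted p under 0.05, and 3942 lay above and 2990 below. With weakly expressed genes left out, 11090 genes remained. At unadjusted p under 0.05, 1655 of them were higher and 567 lower, against 1774 and 1499 among all genes. In 1582 all DIO + HMB tumors lay above and in 562 below, against 1851 and 1462. The filter thus removed mainly genes of the lower direction. With array width in the model, 453 were higher and 523 lower, and width differs between the groups, so the model cannot separate width from group well.

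Labels give the groups the same replicate numbers. Same-numbered DIO + HMB and control tumors had correlated deviations of 0.013, 0.223 and 0.297, against -0.295 to 0.183 between tumors of different numbers. The labels do not state pairs, so the main model did not use the numbers. Whether the numbers mark pairs was not tested. Number 4 occurs only in DIO + HMB, so the replicate block takes replicate 4 out of the difference, as leaving that tumor out does. With this block, 1485 genes were higher and 1307 lower at unadjusted p under 0.05 and 0 passed. Cd3e (0.077) and Mki67 (-0.034) turned sign. Among genes with values near 0 or wide spread, other signs were found as follows, none past the threshold, and the cause was not tested. With array width in the model, Acot2 was at -0.17, Atp5d at -0.067, Cd3e at 0.26, Csf1r at -0.051, Foxp3 at -0.58, Irf9 at -0.044, Kdm3a at -0.0026, Mki67 at -0.18, Sesn2 at -0.038 and Tat at 0.21. After a further quantile normalization, Cd8a was at -0.037, Cxcl1 at 0.049 and Mki67 at -0.041. With the mean of all probe sets, Krt18 was at 0.028. With the adipocyte score in the model, also chosen after seeing the data, Adipoq was at -0.27 and Krt18 at 0.095. Without DIO + HMB arrays 1 and 2, Cd79a was at -0.28, Cd8a at -0.14, Cxcl1 at 0.0062 and Krt18 at 0.018. With 1 tumor left out, the differences ranged from -0.39 to 0.13 for Cd3e, -0.21 to 0.18 for Cd8a, -0.43 to 0.76 for Col1a1, -0.14 to 0.088 for Cxcl1, -1.19 to 0.31 for Fcer1a, -0.29 to 0.73 for Foxp3, -0.15 to 0.081 for Krt18, -0.036 to 0.11 for Mki67, -0.13 to 0.024 for Mt2 and -0.28 to 0.014 for Tat.

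Of 1072 list medians under the alternatives, 58 moved by more than the spread between replicates, in 38 lists. Array signal sets the limit for weakly expressed genes, among them 7 of the 12 leading lower genes.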
